A study of Mus with 35 samples.

Results

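The brains of wild-type mice given a control antisense oligonucleotide (ASO) were compared at 8 weeks and at 3 weeks of age, that is, in young adulthood and at about weaning. RNA sequencing of 3 libraries per age, 6 of the 35 libraries in the series, gave an expression level in TPM (transcript abundance scaled for transcript length and library total) for 55573 gene rows. The 16472 rows whose 6 values averaged 1 TPM or more were tested. All 6 came from C57BL/6J males of genotype WT, littermates of males that carry an Hnrnph2 mutation (P209L or R206W), and all 6 had received 30 µg of the control ASO into the cerebral ventricles as a bolus on postnatal day 2 to 4. No uninjected brain is among them, so both ages share the injection and the oligonucleotide. The library numbers of both groups begin like those of the P209L libraries, and libraries whose numbers begin alike are called a number series here; the labels do not say what the numbers stand for. A further WT control ASO group at 3 weeks, whose numbers belong to the series of the R206W libraries, was kept out of the comparison and is used at the end. Nothing in the labels says whether the libraries come from separate animals. The p-values of the main fit rest on the spread between libraries of a group, pooled over the 23 libraries of the P209L number series. They do not rest on the spread of the 6 compared libraries alone.

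Between weaning and young adulthood the mouse brain leaves a phase of growth. Oligodendrocyte precursors mature through a short premyelinating stage and wrap axons in myelin, a membrane rich in cholesterol and galactolipids, and the rate of wrapping falls once most sheaths are laid down. Before or over these weeks axon outgrowth ends, capillaries stop sprouting, the extracellular matrix around neurons takes its adult form, and receptor subunits of the immature synapse are exchanged for adult ones. Each of these programmes has genes that are used mainly while building goes on, and these were examined as lists.

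Hnrnph2, the target of the active ASO in the series, checks the labels. Its level was 109, 88.2 and 117 TPM at 8 weeks and 111, 102 and 115 TPM at 3 weeks in the libraries compared, means of 105 ± 14.8 and 109 ± 6.66 (SD, n = 3 each; exact two-sided permutation p = 0.8, where 0.1 is the smallest p that 3 against 3 allows). In WT brains given the Hnrnph2 ASO it stood at 17.01 ± 4.496 TPM at 8 weeks and 17.96 ± 1.49 TPM at 3 weeks (SD, n = 3 each). The levels of both groups compared lay above every level under the Hnrnph2 ASO in WT brains.

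The series text speaks of whole brain, while the extraction protocol speaks of dissected cortex. Markers of many regions were present in every library. Cbln3 of cerebellar granule cells stood at 115, 106 and 85.4 TPM at 8 weeks and 98.8, 92.2 and 85.2 TPM at 3 weeks, Pcp2 of Purkinje cells at 165 to 319 TPM, Ttr of the choroid plexus at 672 to 1083 TPM, and Hcrt of the lateral hypothalamus at 12.4 to 16.4 TPM over the 6 libraries. The RNA was therefore not from cortex alone. The make-up also differed between libraries of the same age. The pituitary hormone genes Gh and Prl reached 56.3 and 10.02 TPM in 8-week replicate 2 and did not exceed 0.2 and 0.11 TPM in the other 5 libraries. In 8-week replicate 3 the hindbrain markers Hoxb3 and Hoxb5 were at 0.01 and 0.02 TPM, against 0.86 to 2.83 and 3.08 to 7.38 TPM in the other 5 libraries. That same library had the highest level at 8 weeks of the striatal marker Drd1 (15.3, 10.8 and 26.6 TPM at 8 weeks and 19.7, 22.9 and 17.9 TPM at 3 weeks). Drd1 was lowest in 8-week replicate 2. Counts of genes are therefore given below without these libraries too. The 6 libraries hold 16235 to 16521 genes at 1 TPM or more each. Their 50 most abundant genes take 30.2% to 33.8% of the TPM at 8 weeks and 27.1% to 29.6% at 3 weeks, and genes of the mitochondrial genome take 14.8% to 15.4% and 12.5% to 13.9%. TPM keeps no record of depth, so the number of reads behind each value is unknown. All 8-week libraries have lower library numbers than all 3-week libraries of the same number series, so age and any difference between these 2 blocks of numbers cannot be told apart. The second part of the library names begins with TCF in 8-week replicates 1 and 3 and with AK in the other libraries compared. The labels do not say what it stands for.

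**Figure D1:**
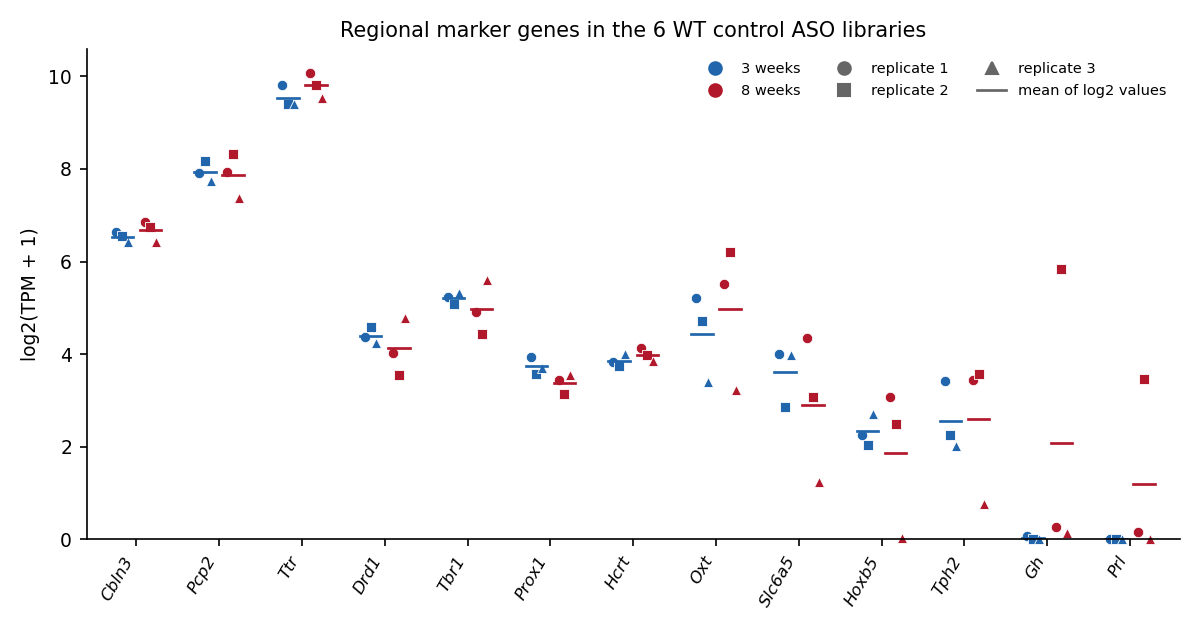
Regional marker genes in the 6 libraries. The vertical axis is log2(TPM + 1), each symbol is a library (shape gives the replicate number) and each bar is the mean of the 3 log2 values of an age. The cerebellar, Purkinje and choroid plexus genes (Cbln3, Pcp2, Ttr) are high in all 6 libraries, Gh and Prl stand out in 8-week replicate 2 alone, and Hoxb5 is near 0 in 8-week replicate 3 alone.

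With limma on log2(TPM + 1) and Benjamini-Hochberg adjusted p under 0.05, 386 genes were higher at 8 weeks (2.34% of those tested) and 1118 were lower (6.79%), in all 9.13%. The median log2 change was 0.43 among genes that rose and -0.41 among genes that fell, and 19 rises and 59 falls went beyond 1 on the log2 scale. In 369 of the 386 and in 1079 of the 1118 the 3 libraries of an age did not overlap with the 3 of the other, against 8.0% (higher) and 16.5% (lower) of all genes tested. The median log2 change over all genes was -0.05. Scaling the libraries by median ratios moved that median to 0.02 and the split of calls to 641 higher (3.89%) and 689 lower (4.18%), so that the higher share of calls was 48.2% instead of 25.7%, while all 1504 genes called on plain TPM kept their sign. Without 8-week replicate 2 the calls were 214 higher and 614 lower, and without 8-week replicate 3 they were 627 and 2000. Leaving out 8-week replicate 1 gave 177 and 784, and leaving out 3-week replicates 1 and 3 gave 180 and 559, and 159 and 617. With only the 6 compared libraries in the fit, which leaves 4 residual degrees of freedom, 45 and 225 genes were called. A set of 97 rises and 474 falls was called with any 1 of the 6 libraries left out. RNA from bulk tissue cannot tell fewer cells of a type from less RNA per cell, and this holds for every result below.

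The largest rise of any gene that met the naming rule was that of Il33 (chromosome 19, 29925113 to 29960718 in mm10). It is a nuclear cytokine that mature oligodendrocytes and astrocytes make. Il33 stood at 49.2, 34.9 and 44.6 TPM at 8 weeks and 8.51, 7.07 and 9.86 TPM at 3 weeks (log2 change 2.21 ± 0.17 SE, adjusted p = 2.61e-07). Every 8-week library lay above every 3-week library. Serpinb1a (chromosome 13, 32842092 to 32853206), a serine protease inhibitor, followed with 21.98, 16.6 and 16.1 TPM at 8 weeks and 3.39, 3.73 and 4.55 TPM at 3 weeks (log2 change 1.97 ± 0.29 SE, adjusted p = 2.62e-04), and its groups did not overlap. Neat1 (chromosome 19, 5824708 to 5845480), the long noncoding RNA around which nuclear paraspeckles form, was at 100.2, 108 and 77.8 TPM at 8 weeks and 29.4, 30.1 and 24.2 TPM at 3 weeks (log2 change 1.73 ± 0.14 SE, adjusted p = 6.60e-07). Neat1 levels did not overlap between the ages. Malat1, its abundant neighbour RNA of nuclear speckles, had 272 to 441 TPM at 8 weeks and 167 to 220 TPM at 3 weeks. No call is given for Malat1, and its ages overlapped in the other sets of libraries. It had 183 to 408 TPM at 8 weeks and 200 to 215 TPM at 3 weeks in P209L control ASO brains. In WT brains with the Hnrnph2 ASO it had 235 to 336 and 218 to 422 TPM. Qdpr (chromosome 5, 45434032 to 45450229), which regenerates the cofactor tetrahydrobiopterin, was at 299, 365 and 288 TPM at 8 weeks and 140.0, 136 and 139 TPM at 3 weeks (log2 change 1.18 ± 0.10 SE, adjusted p = 7.57e-07). Other large rises were in Adamtsl4, a secreted protein of the fibrillin matrix (1.25), Hsf4, a heat shock transcription factor (0.94), Plk5, a polo-like kinase (0.91), Efemp1, the matrix protein fibulin-3 (0.83), and Pls1, an actin bundler (0.68), all in log2 units. Rida, Tinagl1 and Tnfsf12 (log2 changes 0.69, 0.63 and 0.63) completed the set with Flt3l (0.66), the ligand of the FLT3 receptor. Their calls ended, except for that of Flt3l, with only the 6 compared libraries in the fit (adjusted p = 0.0667, 0.0631 and 0.0669).

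Genes of the oligodendrocyte lineage fell in each of the 3 lists that describe it, and a few rose. Of 18 genes that mark newly formed, premyelinating oligodendrocytes, 12 fell (66.7%, against 6.79% of all genes tested) and 0 rose, with a median log2 change of -0.63 (all genes -0.05). Gpr17, a receptor that marks precursors on their way to differentiation, had the largest fall of any gene that met the naming rule, from 83.8, 74.95 and 72.04 TPM at 3 weeks to 24.99, 20.9 and 25.8 TPM at 8 weeks (log2 change -1.65 ± 0.15 SE, adjusted p = 1.86e-06). Enpp6 (chromosome 8, 46939197 to 47096762), a choline phosphodiesterase that appears as wrapping begins, was at 9.99, 7.80 and 8.19 TPM at 8 weeks and 27.9, 22.2 and 24.4 TPM at 3 weeks (log2 change -1.42 ± 0.17 SE, adjusted p = 2.10e-05). Neither gene had any overlap between ages. Neu4, a sialidase, was at 4.13, 4.61 and 4.84 TPM at 8 weeks and 9.86, 9.35 and 8.88 TPM at 3 weeks (log2 change -0.91), and the calcium-sensing receptor Casr, the GTPase Rras2 and the kinase Fyn changed by -1.29, -1.003 and -0.71 on the log2 scale. The master regulator Myrf was among the 12. Summed over the list, TPM ran from 686 to 809 TPM at 8 weeks and 923 to 1036 TPM at 3 weeks. With any 1 library left out, 11 of the 12 were still called.

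Of 18 genes of oligodendrocyte precursors, 8 fell and 0 rose (median -0.34). Pdgfra, the growth factor receptor that defines the precursor, was at 12.9, 10.8 and 16.3 TPM at 8 weeks and 23.1, 17.9 and 20.1 TPM at 3 weeks (log2 change -0.59 ± 0.14 SE, adjusted p = 0.0158). Its groups did not overlap, but its call ended with only the 6 compared libraries in the fit (adjusted p = 0.125), without 8-week replicate 1 (adjusted p = 0.0517), without 8-week replicate 2 (adjusted p = 0.0950), without 3-week replicate 1 (adjusted p = 0.0923) and without 3-week replicate 3 (adjusted p = 0.0507). Cspg4, the NG2 proteoglycan, was at 8.30, 7.69 and 8.62 TPM at 8 weeks and 12.3, 11.7 and 10.1 TPM at 3 weeks (log2 change -0.42 ± 0.08 SE, adjusted p = 0.00155), a call that ended with only the 6 compared libraries in the fit (adjusted p = 0.0925). The lineage transcription factors Olig1, Olig2 and Sox10, which precursors and mature cells share, fell by 0.69, 0.60 and 0.57 on the log2 scale and held in each of the leave-one-out fits. With only the 6 libraries in the fit, 5 members of the list were called lower.

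Of 32 genes of myelinating oligodendrocytes, 16 fell and 5 rose (median -0.31), and 14 of the 16 falls were called with any 1 library left out. The summed TPM of the list was 8921 to 11831 TPM at 8 weeks and 17681 to 19857 TPM at 3 weeks. Mbp, a main protein of compact myelin, stood at 4154, 3584 and 3001 TPM at 8 weeks and 8069, 7149 and 7729 TPM at 3 weeks (log2 change -1.11 ± 0.10 SE, adjusted p = 1.52e-06). Every 8-week library lay below every 3-week library. Ugt8a (chromosome 3, 125865272 to 125938682), the enzyme that makes the myelin lipid galactocerebroside, showed 52.2, 41.4 and 48.5 TPM at 8 weeks and 162, 123 and 141 TPM at 3 weeks (log2 change -1.56 ± 0.19 SE, adjusted p = 3.20e-05). Mog, a protein of the outermost myelin layer, was at 123, 111 and 94.1 TPM at 8 weeks and 253, 240.0 and 239 TPM at 3 weeks (log2 change -1.16), and Mag, of the innermost layer, at 355, 245 and 287 TPM at 8 weeks and 653, 555 and 627 TPM at 3 weeks (log2 change -1.06). Cnp, Cldn11 and Gsn changed by -1.04, -1.23 and -1.35 on the log2 scale. Mobp was also lower (1332, 1126 and 904 TPM at 8 weeks and 1754, 1704 and 1658 TPM at 3 weeks, log2 change -0.62, adjusted p = 0.00146, and 0.0817 with only the 6 libraries in the fit).

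The members of the same list that rose were Il33, Plekhb1, Car2, Hapln2 and Ndrg1. Plekhb1 (chromosome 7, 100643896 to 100662394), a membrane-bound protein with a pleckstrin homology domain, was at 415, 431 and 343 TPM at 8 weeks and 260.2, 252 and 265 TPM at 3 weeks (log2 change 0.61 ± 0.09 SE, adjusted p = 1.90e-04). Car2, carbonic anhydrase of the oligodendrocyte cytoplasm, was at 205.99, 196 and 190.2 TPM at 8 weeks and 139, 119 and 142 TPM at 3 weeks (log2 change 0.57, adjusted p = 0.0125), and its call ended without 3-week replicate 2 (adjusted p = 0.0539). Ndrg1, a protein of the myelin-forming cell whose loss in Schwann cells causes neuropathy, was at 88.5, 80.5 and 76.5 TPM at 8 weeks and 64.4, 59.8 and 57.03 TPM at 3 weeks (log2 change 0.43, adjusted p = 0.00217, and 0.0601 with only the 6 libraries in the fit). Hapln2, a link protein of the node of Ranvier, was at 42.2, 42.4 and 26.4 TPM at 8 weeks and 27.8, 25.4 and 24.01 TPM at 3 weeks (log2 change 0.48, adjusted p = 0.0405), and was not called in 5 of the 6 leave-one-out fits. Car2, Hapln2 and Ndrg1 are named after their values were seen. Without 3-week replicate 2, 3 of the list's members were called higher, the same number as with only the 6 libraries in the fit.

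**Figure D2:**
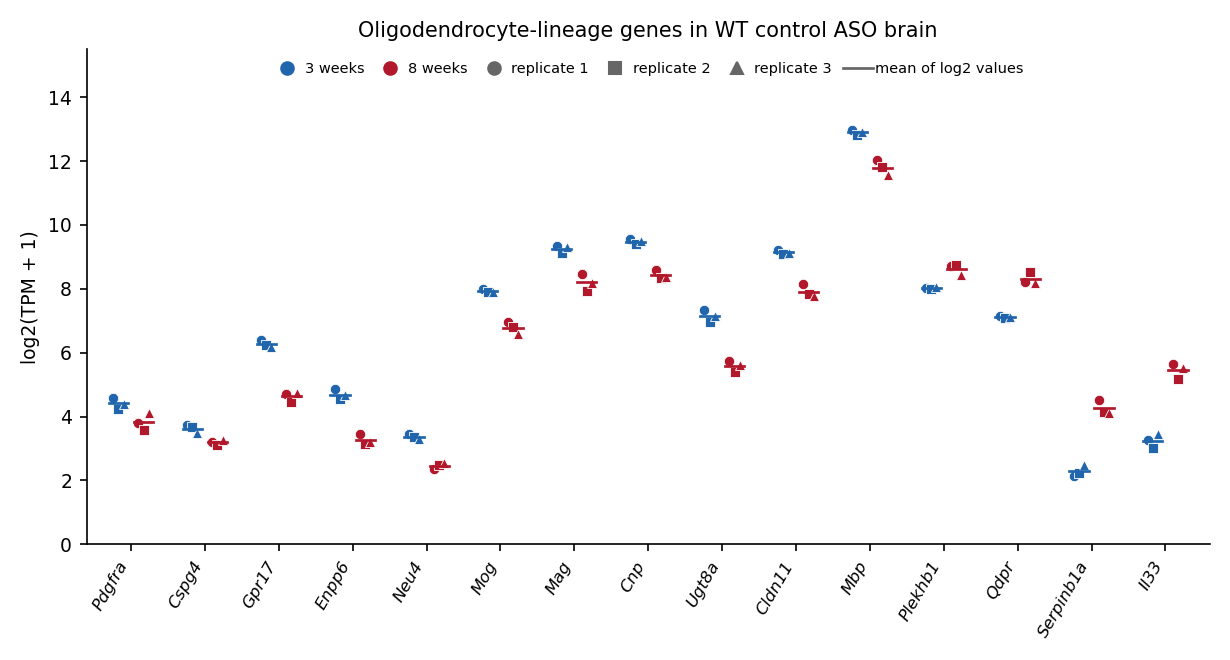
Oligodendrocyte-lineage genes by library, with Qdpr and Serpinb1a, large rises that are in none of the 3 lineage lists. The listed risers Car2, Hapln2 and Ndrg1 are not drawn. The vertical axis is log2(TPM + 1); blue symbols are the 3 libraries at 3 weeks, red symbols the 3 at 8 weeks, and bars are means of the log2 values. From Pdgfra to Mbp every red group lies below its blue group, and for Plekhb1, Qdpr, Serpinb1a and Il33 it lies above.

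Enzymes that make the lipids of myelin were lower as well. All 21 genes of cholesterol synthesis had a log2 change below 0, 14 of them fell and the median was -0.45. Hmgcs1 (chromosome 13, 119690351 to 119708260), which makes HMG-CoA, was at 173, 124 and 161 TPM at 8 weeks and 286, 224 and 269.6 TPM at 3 weeks (log2 change -0.77 ± 0.16 SE, adjusted p = 0.00443). Its groups did not overlap. Cyp51, Sqle and Fdps, later steps of the pathway, changed by -0.69, -0.64 and -0.54 on the log2 scale. The count of 14 was 7 (with only the 6 compared libraries in the fit, without 8-week replicate 2), 8 without 3-week replicate 1 and 9 without 3-week replicate 3, and the calls of Hmgcs1 and Acat2 were among those that ended in the fit of the 6 libraries (adjusted p = 0.0601 and 0.0565). Of 20 genes that control sterol levels or carry cholesterol, 1 rose (5%) and 2 fell (10%). Over all genes tested the shares were 2.34% and 6.79%. With only the 6 libraries in the fit 0 of the 20 were called. Among 34 genes of glial lipid and energy metabolism 10 fell and 0 rose (median -0.23). They include Gal3st1, which sulfates galactocerebroside (-0.90), the very long chain fatty acid enzymes Elovl1 (-0.72) and Cers2 (-0.64), and Slc16a1, a monocarboxylate transporter of oligodendrocytes and capillaries (-0.98), in log2 units. With only the 6 libraries in the fit, 4 of the 10 were called.

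Of 34 genes of immature neurons and growing axons 19 fell and 0 rose (median -0.37). Marcksl1 (chromosome 4, 129513581 to 129515981), an actin-binding protein of growing neurites, was at 100.4, 113 and 102 TPM at 8 weeks and 291, 286 and 292 TPM at 3 weeks (log2 change -1.45 ± 0.07 SE, adjusted p = 8.09e-10). The 3 values of an age lay close together and the ages far apart. Sox4, a transcription factor of young neurons, was at 9.97, 10.8 and 11.4 TPM at 8 weeks and 18.4, 17.4 and 20.6 TPM at 3 weeks (log2 change -0.75 ± 0.11 SE, adjusted p = 2.62e-04). Dpysl5 and Crmp1, collapsin response mediators of the growth cone, and Fscn1, which bundles actin in filopodia, changed by -0.66, -0.44 and -0.62 on the log2 scale. Stmn2, which loosens microtubules in growing axons, changed by -0.36. The tubulins Tuba1a, Tubb2a and Tubb2b were among the 19. Dcx, the doublecortin of migrating neurons, was at 9.49, 9.67 and 13.1 TPM at 8 weeks and 14.8, 14.7 and 15.6 TPM at 3 weeks, with no overlap, and missed the threshold (log2 change -0.46, adjusted p = 0.0544). Sox11 was at 4.31, 4.67 and 4.36 TPM at 8 weeks and 5.49, 5.47 and 5.35 TPM at 3 weeks (adjusted p = 0.242). The count of 19 became 6 with only the 6 compared libraries in the fit and 12 without 3-week replicate 1 or 3, and the calls of Crmp1 and Stmn2 ended in that fit (adjusted p = 0.0577 and 0.0561).

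Among 60 axon guidance cues and receptors 14 fell and 0 rose (median -0.23). Sema4d (chromosome 13, 51685529 to 51793678) and Sema6a, transmembrane semaphorins that oligodendrocytes also carry, led them. Sema4d was at 71.8, 68.8 and 65.4 TPM at 8 weeks and 144, 142 and 142 TPM at 3 weeks (log2 change -1.05 ± 0.08 SE, adjusted p = 1.16e-07), and the log2 change of Sema6a was -0.89. Receptors among the 14 were Nrp1, Plxna1, Plxnb3, Robo2, Ephb1 and Ephb3. The count was 3 with only the 6 compared libraries in the fit, 9 (with median ratio scaling, without 3-week replicate 3), 6 without 8-week replicate 2, 26 without 8-week replicate 3 and 4 without 3-week replicate 1.

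Of 24 tested proliferation genes limma called 0 (median log2 change -0.11). Of 32 progenitor and neurogenesis genes 3 fell (9.38%, against 6.79% of all genes tested, and 1 with only the 6 libraries in the fit), among them Prom1, a membrane protein of progenitors and glia (-0.70). Of 29 fetal RNA-binding and chromatin genes 3 fell (10.3%) and 1 rose. Dnmt3a (chromosome 12, 3801559 to 3914443), which writes DNA methylation in postnatal neurons, was at 26.6, 25.6 and 28.2 TPM at 8 weeks and 54.1, 46.5 and 46.2 TPM at 3 weeks (log2 change -0.84 ± 0.09 SE, adjusted p = 5.03e-06). The oxidase genes Tet3 and Tet1 changed by -0.56 and -0.75; with only the 6 libraries in the fit their adjusted p was 0.0514 and 0.125, and the call of Tet1 also ended without 8-week replicate 2 or without 3-week replicates 1 or 3. Cbx7 (chromosome 15, 79915804 to 79971143), the Polycomb chromodomain protein of differentiated cells, moved the other way, with 46.2, 41.2 and 40.3 TPM at 8 weeks and 26.01, 26.3 and 23.2 TPM at 3 weeks (log2 change 0.73 ± 0.11 SE, adjusted p = 2.71e-04). The 3 falls of that list became 1 with only the 6 compared libraries in the fit and 7 without 8-week replicate 3. Among 30 imprinted genes of fetal growth 3 fell (10%), and 1 with only the 6 libraries in the fit. At a mean of at least 5 TPM, a filter that leaves Mkrn3 untested, 1 fell. Mkrn3, an imprinted ubiquitin ligase gene linked to the timing of puberty, was at 1.62, 1.71 and 1.77 TPM at 8 weeks and 4.03, 3.42 and 4.23 TPM at 3 weeks (log2 change -0.85 ± 0.14 SE, adjusted p = 6.02e-04), and the cell cycle inhibitor Cdkn1c changed by -0.60 (adjusted p = 0.0514 with the 6 libraries alone). Igf2 (103, 94.2 and 77.8 TPM at 8 weeks and 105, 109 and 99.7 TPM at 3 weeks; adjusted p = 0.399) and Dlk1 (30.1, 23.6 and 12.9 TPM at 8 weeks and 29.3, 19.8 and 22.8 TPM at 3 weeks; adjusted p = 0.725) were not called.

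Of 21 genes of perineuronal nets and brain matrix 8 fell and 1 rose (median -0.28). Hapln1 (chromosome 13, 89540529 to 89611832), the link protein that ties hyaluronan to lecticans, was at 10.7, 7.38 and 11.2 TPM at 8 weeks and 19.02, 17.7 and 22.03 TPM at 3 weeks (log2 change -0.95 ± 0.18 SE, adjusted p = 0.00263). Adamts4 (chromosome 1, 171250129 to 171262267), a protease that cleaves lecticans, was at 21.5, 15.3 and 21.3 TPM at 8 weeks and 44.7, 36.3 and 37.8 TPM at 3 weeks (log2 change -1.01 ± 0.16 SE, adjusted p = 5.45e-04). Neither overlapped between ages. The lecticans Ncan, Vcan and Bcan changed by -0.78, -0.74 and -0.28 on the log2 scale, the sulfotransferase Chst3 by -0.70 and the extracellular sulfatase Sulf2 by -0.66. Calls of these last 5 ended with only the 6 libraries in the fit (adjusted p = 0.0572, 0.0978, 0.0946, 0.0577 and 0.0565), and that of Bcan also with median ratio scaling (adjusted p = 0.0602). The riser was Hapln4, a link protein of adult perineuronal nets, at 83.02, 66.00 and 86.7 TPM at 8 weeks and 61.02, 50.6 and 60.4 TPM at 3 weeks (log2 change 0.44, adjusted p = 0.0157). Its call ended with only the 6 compared libraries in the fit (adjusted p = 0.141), without 8-week replicate 1 (adjusted p = 0.0670) and without 3-week replicate 2 (adjusted p = 0.0698). With only the 6 libraries in the fit 2 of the 8 falls were called.

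Of 40 collagen and basement membrane genes 18 fell and 0 rose (median -0.32). Eln (chromosome 5, 134702595 to 134747368), elastin of the vessel wall, was at 7.18, 7.41 and 7.12 TPM at 8 weeks and 23.5, 24.3 and 23.8 TPM at 3 weeks (log2 change -1.59 ± 0.15 SE, adjusted p = 2.39e-06). Col3a1, a fibrillar collagen of vessels and meninges, was at 4.72, 4.48 and 2.66 TPM at 8 weeks and 12.3, 10.7 and 10.4 TPM at 3 weeks (log2 change -1.32 ± 0.28 SE, adjusted p = 0.00588). Col4a1, the main collagen of the capillary basement membrane, was at 15.3, 11.4 and 16.9 TPM at 8 weeks and 36.1, 31.5 and 36.3 TPM at 3 weeks (log2 change -1.21 ± 0.18 SE, adjusted p = 3.67e-04). In all 3 the 8-week libraries lay below the 3-week libraries without overlap. Nid1 and Nid2, which link laminin to collagen IV, changed by -1.30 and -0.87, Lamc1 by -0.67, Col1a1 by -0.83 and Sparc by -0.84, all on the log2 scale. With only the 6 libraries in the fit 8 members were called. A list of leptomeningeal fibroblast genes held 2 rises and 4 falls, and 3 of the falls were collagens. These counts were 0 (with only the 6 compared libraries in the fit, with no filter on low values, without 8-week replicate 1 or 2, without 3-week replicate 1 or 3), 5 without 8-week replicate 3 and 1 without 3-week replicate 2 for the rises and 2 with only the 6 compared libraries in the fit for the falls. Its other markers Slc6a13 and Dcn were at 9.30 to 10.7 and 19.2 to 28.2 TPM at 8 weeks and 8.03 to 9.16 and 19.02 to 21.6 TPM at 3 weeks and were not called.

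Of 36 genes of endothelium and blood-brain barrier 9 fell and 1 rose (median -0.28), and of 17 genes of sprouting tip cells 8 fell and 0 rose (median -0.34). Kdr, the main VEGF receptor, was at 3.49, 3.29 and 5.49 TPM at 8 weeks and 11.5, 7.29 and 11.3 TPM at 3 weeks (log2 change -1.12 ± 0.19 SE, adjusted p = 8.84e-04; adjusted p = 0.0613 with only the 6 libraries in the fit). Mfsd2a (chromosome 4, 122946850 to 122961194), which carries omega-3 lipids into the brain, was at 15.1, 13.7 and 14.3 TPM at 8 weeks and 30.3, 32.2 and 29.4 TPM at 3 weeks (log2 change -1.04 ± 0.17 SE, adjusted p = 6.23e-04). Apcdd1, an inhibitor of Wnt signals at the barrier, changed by -1.05 and Eng, a TGF-beta co-receptor, by -0.66. Of the general endothelial markers, Cldn5, the claudin of the barrier's tight junctions, fell, with 32.9, 45.6 and 48.7 TPM at 8 weeks and 69.8, 52.7 and 71.9 TPM at 3 weeks (log2 change -0.61, adjusted p = 0.0166), a call that did not hold in every leave-one-out fit. Pecam1 was at 12.3, 9.60 and 12.7 TPM at 8 weeks and 13.2, 11.3 and 13.2 TPM at 3 weeks and Flt1 at 16.98, 13.7 and 21.9 TPM at 8 weeks and 19.7, 15.1 and 19.2 TPM at 3 weeks, and neither was called (adjusted p = 0.599 and 0.864). Ly6a rose by 0.60 on the log2 scale, a call that ended with only the 6 compared libraries in the fit (adjusted p = 0.0549), without 8-week replicate 1 (adjusted p = 0.0573), without 8-week replicate 2 (adjusted p = 0.0565), without 3-week replicate 1 (adjusted p = 0.0585) and without 3-week replicate 3 (adjusted p = 0.0712). The count of 9 was 4 with only the 6 compared libraries in the fit and 5 without 3-week replicate 1. That of 8 was 5 at a mean of at least 5 TPM, a filter that leaves lower genes untested.

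The number of synapse genes called moved with the libraries that entered. Of 42 presynaptic release genes 10 fell (23.8%, against 6.79% of all genes tested) and 0 rose (median -0.23). Syp, synaptophysin of the synaptic vesicle, was at 960.1, 854 and 1035 TPM at 8 weeks and 1262, 1206 and 1265 TPM at 3 weeks (log2 change -0.39 ± 0.07 SE, adjusted p = 8.03e-04), and Slc17a7, the vesicular glutamate transporter of cortex and cerebellum, at 548, 553 and 705 TPM at 8 weeks and 775, 827 and 817 TPM at 3 weeks (log2 change -0.43 ± 0.10 SE, adjusted p = 0.00806). Erc1, a scaffold of the active zone, changed by -0.64. The count was 1 with only the 6 compared libraries in the fit, 5 (with median ratio scaling, without 8-week replicate 1), 4 (without 8-week replicate 2, without 3-week replicate 3), 22 without 8-week replicate 3 and 6 without 3-week replicate 1. The calls of Syp and Slc17a7 ended with only the 6 libraries in the fit (adjusted p = 0.0817 and 0.111) and that of Slc17a7 with median ratio scaling (adjusted p = 0.0538). Of 27 genes of NMDA, AMPA and kainate receptors and their partners 3 fell (11.1%), of 29 postsynaptic scaffold genes 4 fell (13.8%), and in neither list did a gene rise. They include Grin1, Cacng2 and Cnih2, and Dlg4, Shank3 and Dlgap3. None of these 6 was called in all of the 6 leave-one-out fits. The receptor count was 0 (with only the 6 compared libraries in the fit, without 3-week replicate 3), 1 (with median ratio scaling, without 8-week replicate 1 or 2, without 3-week replicate 1 or 2) and 12 without 8-week replicate 3. The scaffold count was 0 (with only the 6 compared libraries in the fit, without 8-week replicate 1 or 2, without 3-week replicate 3), 2 (with no filter on low values, with TPM rescaled without mitochondrial and structural RNAs, without 3-week replicate 2), 1 (with median ratio scaling, without 3-week replicate 1) and 15 without 8-week replicate 3. The striatal marker Drd1, given above, is highest at 8 weeks in replicate 3, and its part in these counts was not tested.

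The receptor subunits known to exchange during development were not called, and their values moved with the 8-week library left out. Grin2b, the NMDA receptor subunit of young synapses, was at 25.97, 23.2 and 49.9 TPM at 8 weeks and 46.1, 36.1 and 37.1 TPM at 3 weeks (log2 change -0.33 ± 0.21 SE, adjusted p = 0.340), and Grin2a, which joins later, at 22.1, 17.8 and 32.1 TPM at 8 weeks and 28.3, 24.6 and 26.2 TPM at 3 weeks (log2 change -0.17 ± 0.15 SE, adjusted p = 0.540). Grin2d was at 11.1, 9.71 and 9.75 TPM at 8 weeks and 11.8, 12.7 and 11.99 TPM at 3 weeks (adjusted p = 0.113). The ages overlapped for Grin2a and Grin2b. Without 8-week replicate 3 the log2 changes of Grin2b and Grin2a were -0.67 and -0.39, and without 8-week replicate 2 they were -0.13 and 0.02. The GABA-A receptor subunits Gabra2, Gabra3 and Gabra5 had adjusted p of 0.371, 0.838 and 0.375. The chloride transporters Slc12a2, which loads chloride in young neurons, and Slc12a5, which extrudes it in mature ones, changed by -0.29 and -0.04 on the log2 scale (adjusted p = 0.147 and 0.792). Of 30 genes of the GABA list 1 fell, Nlgn2 (3.33%, against 6.79% of all genes tested). The call of Nlgn2 ended with only the 6 compared libraries in the fit (adjusted p = 0.191), without 8-week replicate 1 (adjusted p = 0.0664), without 8-week replicate 2 (adjusted p = 0.111) and without 3-week replicate 1 (adjusted p = 0.101). Without 8-week replicate 3 the list had 8 falls. The sodium channels Scn1a, Scn2a, Scn3a and Scn8a changed by -0.16, -0.33, -0.21 and -0.20 (adjusted p = 0.660, 0.325, 0.346 and 0.379). Of 30 sodium, calcium and HCN channel genes 3 fell (10%), and of 52 potassium channel genes 1 fell (1.92%), Kcnk9, a leak channel. The potassium channel count was 0 (with only the 6 compared libraries in the fit, with no filter on low values, with TPM rescaled without mitochondrial and structural RNAs, without 8-week replicate 2, without 3-week replicate 1 or 3), 3 with all 35 libraries in the fit, 8 without 8-week replicate 3 and 2 without 3-week replicate 2. The count of 3 was 0 with only the 6 compared libraries in the fit and 8 without 8-week replicate 3. Of 26 interneuron genes limma called 0, and 1 fell without 8-week replicate 2 or 3. Pvalb, the calcium buffer of fast-spiking and Purkinje cells, was at 214, 269 and 162 TPM at 8 weeks and 203, 231 and 187 TPM at 3 weeks (adjusted p = 0.914). Of 24 axon cytoskeleton and node genes 1 fell (4.17%). This was Nfasc, the cell adhesion molecule of the node and paranode, which neurons and oligodendrocytes both make (100.5, 72.6 and 100.3 TPM at 8 weeks and 197, 167 and 167 TPM at 3 weeks; log2 change -0.96 ± 0.11 SE, adjusted p = 2.35e-05). That list's count was 3 (with all 35 libraries in the fit, without 8-week replicate 1), 2 (at a mean of at least 5 TPM, without 3-week replicate 2) and 9 without 8-week replicate 3. A missed threshold does not show equal levels.

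**Figure D3:**
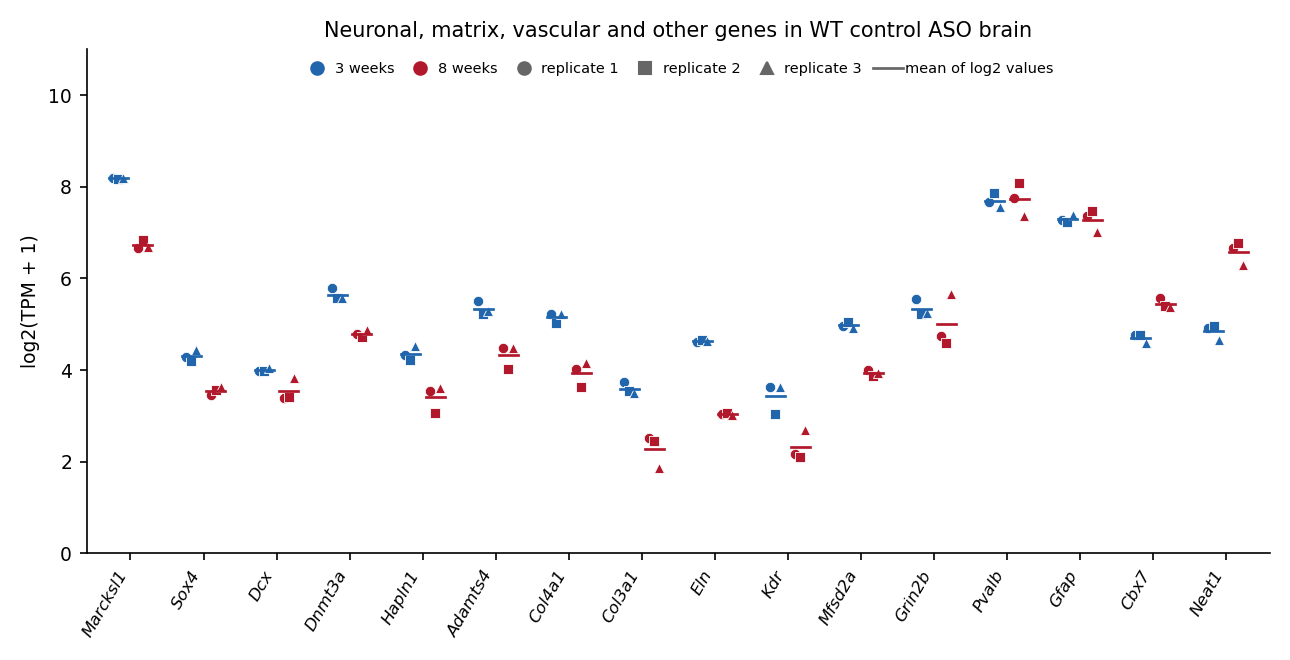
Neuronal, matrix, vascular and other genes by library. The vertical axis is log2(TPM + 1); blue is 3 weeks, red is 8 weeks, shapes give the replicate number and bars the means of the log2 values. Genes of growth and matrix (Marcksl1 to Mfsd2a) lie lower at 8 weeks, Grin2b, Pvalb and Gfap overlap, and Cbx7 and Neat1 lie higher.

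Among 36 astrocyte identity genes 1 rose (2.78%, against 2.34% of all genes tested) and 1 fell (2.78%, against 6.79%). Among 21 reactive astrocyte genes 1 rose (4.76%). None of these 3 calls held in every leave-one-out fit, and without 8-week replicate 3 the identity list had 2 rises and 3 falls. Gfap, the astrocyte filament protein, was at 164, 177 and 128 TPM at 8 weeks and 153, 148 and 165 TPM at 3 weeks (adjusted p = 0.994), and the groups overlapped. Of 29 microglia genes 1 rose, Csf3r (3.45%), whose call did not hold in every leave-one-out fit, and P2ry12 and Tmem119, which mark resting microglia, were at 20.5, 19.97 and 35.9 TPM at 8 weeks and 37.2, 29.2 and 41.8 TPM at 3 weeks and at 12.3, 13.4 and 13.7 TPM at 8 weeks and 13.8, 14.6 and 14.3 TPM at 3 weeks (adjusted p = 0.242 and 0.665). Of 16 tested genes of activated and early postnatal microglia 2 fell (12.5%), Cd9 and Fabp5, which other cells also make. That count was 0 (with only the 6 compared libraries in the fit, without 3-week replicate 1) and 1 (with no filter on low values, with median ratio scaling, with TPM rescaled without mitochondrial and structural RNAs, with no intensity trend, without 8-week replicate 1 or 3, without 3-week replicate 3). Of 15 complement genes Masp1 fell (-0.51) and C4b was at 15.1, 12.7 and 9.45 TPM at 8 weeks and 7.07, 10.2 and 8.42 TPM at 3 weeks (adjusted p = 0.167). Of 21 MHC class I and presentation genes 3 rose and 0 fell (median 0.23). H2-T22, a nonclassical class I gene, was at 15.8, 15.7 and 14.4 TPM at 8 weeks and 11.9, 12.1 and 11.7 TPM at 3 weeks (log2 change 0.34 ± 0.08 SE, adjusted p = 0.00749; adjusted p = 0.0817 with only the 6 libraries in the fit). H2-Q4 was at 4.26, 4.83 and 3.90 TPM at 8 weeks and 2.15, 2.38 and 2.60 TPM at 3 weeks (log2 change 0.66 ± 0.17 SE, adjusted p = 0.0182), and its call ended without 8-week replicate 2 (adjusted p = 0.0821) and without 3-week replicate 1 (adjusted p = 0.0817). Class I genes are near-identical, so reads could be divided between them and these values are uncertain. B2m, their shared light chain, was at 164, 159 and 154 TPM at 8 weeks and 124, 125 and 137 TPM at 3 weeks (log2 change 0.31, adjusted p = 0.135). The count of 3 was 1 (with only the 6 compared libraries in the fit, at a mean of at least 5 TPM, without 8-week replicate 2, without 3-week replicate 1) and 5 without 8-week replicate 3. The filter at 5 TPM leaves H2-Q4 untested.

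Of 9 tested erythrocyte genes 4 fell (median -0.66), with a summed TPM of 1455 to 2228 TPM at 8 weeks and 2691 to 3757 TPM at 3 weeks. Hbb-bs, adult beta globin, was at 679, 375 and 541 TPM at 8 weeks and 1348, 952 and 1059 TPM at 3 weeks (log2 change -1.10 ± 0.31 SE, adjusted p = 0.0299). The count of 4 was 0 (with only the 6 compared libraries in the fit, with no filter on low values, without 8-week replicate 2, without 3-week replicate 1), 1 (with median ratio scaling, without 3-week replicate 3) and 2 (without 8-week replicate 1, without 3-week replicate 2). Of 12 tested leukocyte genes 3 rose, H2-Aa, Crtam and Cd74 (median 0.52). H2-Aa, an MHC class II chain, was at 4.55, 5.24 and 3.53 TPM at 8 weeks and 2.29, 2.17 and 1.97 TPM at 3 weeks (log2 change 0.78 ± 0.20 SE, adjusted p = 0.0195). Here the count was 0 (with only the 6 compared libraries in the fit, without 8-week replicate 1 or 2, without 3-week replicate 1 or 3), 1 (with all 35 libraries in the fit, with no filter on low values) and 5 without 3-week replicate 2. The T cell and B cell markers Cd3e and Cd79a did not exceed 0.21 and 0.65 TPM. Any part of blood content in the endothelial and antigen presentation results was not tested.

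Limma called 0 of 24 cerebellar granule cell genes, 0 of 25 striatal genes, 0 of 22 hindbrain genes and 0 of 18 hypothalamic genes, and 1 of 24 Purkinje cell genes fell (4.17%, against 6.79% of all genes tested). Without 8-week replicate 3, 3 striatal genes fell, 3 Purkinje cell genes fell, 2 hypothalamic genes rose and 1 hindbrain gene rose. Without 8-week replicate 2, 1 granule cell gene fell, and 1 hindbrain gene fell without 8-week replicate 1 or 3-week replicate 2. Of 32 cortical excitatory neuron genes 4 fell (12.5%) and 1 rose (median -0.18). The cortical count was 0 with only the 6 compared libraries in the fit, 1 (with no filter on low values, with median ratio scaling, with TPM rescaled without mitochondrial and structural RNAs, without 8-week replicate 1 or 2, without 3-week replicate 1, 2 or 3), 2 with no intensity trend and 12 without 8-week replicate 3. Among 26 choroid plexus and 25 ependymal genes 1 each rose, Kcnj13 and Cfap44 (3.85% and 4%, against 2.34% of all genes tested). Neither call held in every leave-one-out fit.

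Of 79 cytosolic ribosomal protein genes 15 rose (19%, against 2.34% of all genes tested) and 1, Rps2, fell (median 0.20, against -0.05 over all genes). Rpl30 was at 453, 515 and 399.7 TPM at 8 weeks and 325, 348 and 329.8 TPM at 3 weeks (log2 change 0.44 ± 0.09 SE, adjusted p = 0.00464), and Rps23 at 407, 472 and 371 TPM at 8 weeks and 306, 327 and 305 TPM at 3 weeks (log2 change 0.41 ± 0.09 SE, adjusted p = 0.00542). The ages did not overlap in either. Many ribosomal protein genes have processed copies elsewhere in the genome, which makes their counts uncertain. The count of 15 rises was 0 with only the 6 compared libraries in the fit, 8 with no filter on low values, 3 (without 8-week replicate 2, without 3-week replicate 1 or 3) and 45 without 8-week replicate 3, and both named calls ended with only the 6 libraries in the fit (adjusted p = 0.0896 and 0.102). Of the 13 protein-coding genes of the mitochondrial genome 3 rose (23.1%; median 0.21). The count was 0 (with only the 6 compared libraries in the fit, with no filter on low values). TPM rescaled without mitochondrial and structural RNAs leaves these genes out, so that setting could not test them. mt-Nd2, a subunit of complex I, was at 9009.7, 9687 and 9389 TPM at 8 weeks and 6429.6, 7344 and 7003 TPM at 3 weeks (log2 change 0.44 ± 0.09 SE, adjusted p = 0.00604; adjusted p = 0.0595 with only the 6 libraries in the fit and 0.102 with no filter on low values). Of 70 nuclear genes of the respiratory chain 5 fell (7.14%, against 6.79% of all genes tested) and 0 rose (median -0.06, against -0.05 over all genes). That count was 0 (with only the 6 compared libraries in the fit, with median ratio scaling, without 8-week replicate 1, without 3-week replicate 3), 2 with no filter on low values, 1 (with TPM rescaled without mitochondrial and structural RNAs, without 3-week replicate 1) and 3 (with no intensity trend, without 8-week replicate 3).

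Within the hnRNP H/F family, splicing regulators to which the ASO target belongs, 2 of 5 rose. Hnrnph1 (chromosome 11, 50375257 to 50386528), the autosomal paralog closest to Hnrnph2, was at 333, 328 and 299 TPM at 8 weeks and 253, 242 and 246 TPM at 3 weeks (log2 change 0.37 ± 0.06 SE, adjusted p = 6.05e-04). Hnrnph3 was at 56.3, 57.9 and 50.4 TPM at 8 weeks and 37.9, 42.5 and 36.2 TPM at 3 weeks (log2 change 0.49 ± 0.10 SE, adjusted p = 0.00614). Neither overlapped between ages, and both calls held with any 1 library left out but not with the 6 libraries alone (adjusted p = 0.0565 and 0.0558). Hnrnph2 itself differed by less than the spread between libraries, as given above.

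Of 38 immediate early genes 2 fell (5.26%, against 6.79% of all genes tested), and 1 without 3-week replicate 1 or 3. The list as a whole lay lower, with 37 of 38 log2 changes below 0 and a median of -0.31 (all genes -0.05). In 18 of the 38 every 8-week library lay below every 3-week library, against 16.5% of all genes tested. In P209L brains 8 fell (median -0.40) and in Hnrnph2 ASO brains 2 (median -0.19). Dusp6, a phosphatase that dampens ERK signals, was at 36.1, 36.6 and 35.9 TPM at 8 weeks and 53.7, 53.1 and 55.7 TPM at 3 weeks (log2 change -0.57 ± 0.10 SE, adjusted p = 0.00180). Fos was at 57.8, 61.8 and 22.5 TPM at 8 weeks and 77.3, 68.5 and 83.5 TPM at 3 weeks (adjusted p = 0.310), and Arc at 115, 123 and 72.8 TPM at 8 weeks and 130.3, 151 and 128 TPM at 3 weeks (adjusted p = 0.549). The clock output gene Dbp was at 109.8, 117 and 109 TPM at 8 weeks and 79.03, 96.05 and 83.5 TPM at 3 weeks, higher at 8 weeks without overlap, and missed the threshold (adjusted p = 0.117), and Per2 was at 14.6, 12.3 and 8.56 TPM at 8 weeks and 6.73, 11.99 and 8.51 TPM at 3 weeks (adjusted p = 0.289). The hour of collection is not among the labels, and its part was not tested. Of 23 genes that respond to thyroid hormone 4 fell (17.4%). Hr, a corepressor of the thyroid hormone receptor, was at 25.2, 23.8 and 24.01 TPM at 8 weeks and 39.9, 36.95 and 35.9 TPM at 3 weeks (log2 change -0.61 ± 0.08 SE, adjusted p = 6.06e-05). Dio2, which activates the hormone, changed by -0.45 (adjusted p = 0.0520 with the 6 libraries alone and 0.0586 without 8-week replicate 2). The count of 4 was 1 with only the 6 compared libraries in the fit and 2 (with median ratio scaling, without 8-week replicate 2, without 3-week replicate 1, 2 or 3). Among 23 glucocorticoid response genes limma called 0, with a median of -0.11.

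**Figure D4:**
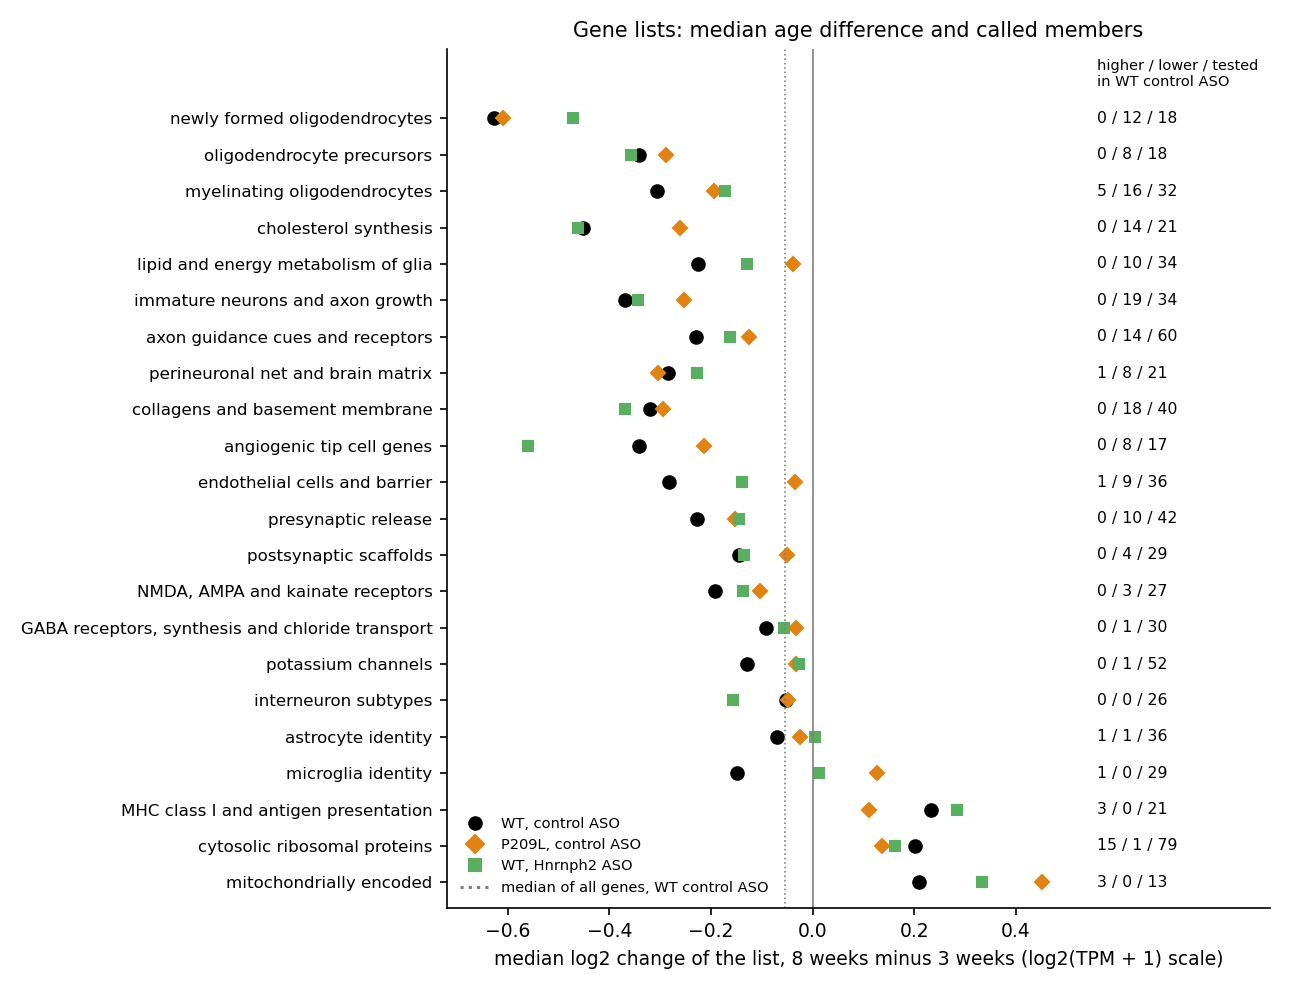
Median log2 change (8 weeks minus 3 weeks, log2(TPM + 1) scale) of 22 gene lists. Black circles are WT with the control ASO, orange diamonds P209L with the control ASO and green squares WT with the Hnrnph2 ASO; the numbers at the right give members called higher, called lower and tested in WT with the control ASO, and the dotted line marks the median of all genes at -0.05. Lists of the oligodendrocyte lineage, cholesterol synthesis, growing neurons and collagens lie left of the dotted line in all 3 sets of libraries, and the ribosomal, antigen presentation and mitochondrial lists lie right of 0.

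The same age difference was measured in separate libraries of the P209L number series, 6 from P209L males with the control ASO and 6 from WT males with the Hnrnph2 ASO. Neither shares a library with the comparison above, although the fit pools the estimate of spread and the 8-week libraries again have the lower library numbers. Some P209L library names share their AK stem with names of the WT control libraries, and the labels do not explain the stem. In P209L brains 529 genes were higher (3.21%) and 811 lower (4.92%) at 8 weeks, 8.14% in all. In WT brains with the Hnrnph2 ASO 402 were higher (2.44%) and 1135 lower (6.89%), 9.33% in all. Of the 386 genes that rose in WT control brains 208 (53.9%) also passed as higher in P209L brains and 189 (49.0%) in Hnrnph2 ASO brains, which is 39.3% and 47.0% of the genes called higher there. Of the 1118 that fell 565 (50.5%) and 714 (63.9%) passed again, which is 69.7% and 62.9% of the genes called lower there. The direction was the same for 376 and 372 of the 386 and for 1102 and 1106 of the 1118. These genes were picked by their WT control values, and the same share over all genes tested is not given here. A call in the opposite direction occurred for 1 gene, in Hnrnph2 ASO brains.

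Il33 was at 26.6, 32.9 and 43.2 TPM at 8 weeks and 9.67, 9.17 and 8.23 TPM at 3 weeks in P209L brains (log2 change 1.79, adjusted p = 2.72e-06). In Hnrnph2 ASO brains it was at 30.7, 38.2 and 31.3 TPM at 8 weeks and 9.15, 8.32 and 6.91 TPM at 3 weeks (log2 change 1.91, adjusted p = 1.38e-06). Gpr17 was at 21.01, 20.3 and 21.1 TPM at 8 weeks and 61.3, 58.1 and 52.7 TPM at 3 weeks in P209L brains and at 25.8, 24.3 and 22.9 TPM at 8 weeks and 77.9, 75.2 and 49.9 TPM at 3 weeks in Hnrnph2 ASO brains. Col4a1 was at 15.6, 17.9 and 16.3 TPM at 8 weeks and 33.02, 32.3 and 30.9 TPM at 3 weeks in P209L brains and at 15.6, 14.7 and 14.1 TPM at 8 weeks and 34.97, 31.6 and 63.7 TPM at 3 weeks in Hnrnph2 ASO brains. Gpr17 changed by -1.42 and -1.41 on the log2 scale, Marcksl1 by -1.37 and -1.55, and Col4a1 by -0.91 and -1.42, in P209L and Hnrnph2 ASO brains in that order. The libraries of the 2 ages did not overlap in any of the 3 sets for Il33, Gpr17, Marcksl1 and Col4a1. Of the 196 named genes called in WT control brains 191 had the same direction in P209L brains and 195 in Hnrnph2 ASO brains. These genes, too, were picked by their WT control values. The exceptions in P209L brains were Npr1, Hspa5, Nes, Shtn1 and Gna15, and Npr1 was the exception in Hnrnph2 ASO brains. The cholesterol synthesis list, with 14 falls in WT control brains, had 1 fall in P209L brains (median -0.26) and 13 in Hnrnph2 ASO brains (median -0.46). Hmgcs1 was at 138, 148 and 151 TPM at 8 weeks and 213, 189.9 and 191 TPM at 3 weeks in P209L brains (adjusted p = 0.0976). The endothelial list had 3 falls in P209L brains and 8 in Hnrnph2 ASO brains.

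**Figure D5:**
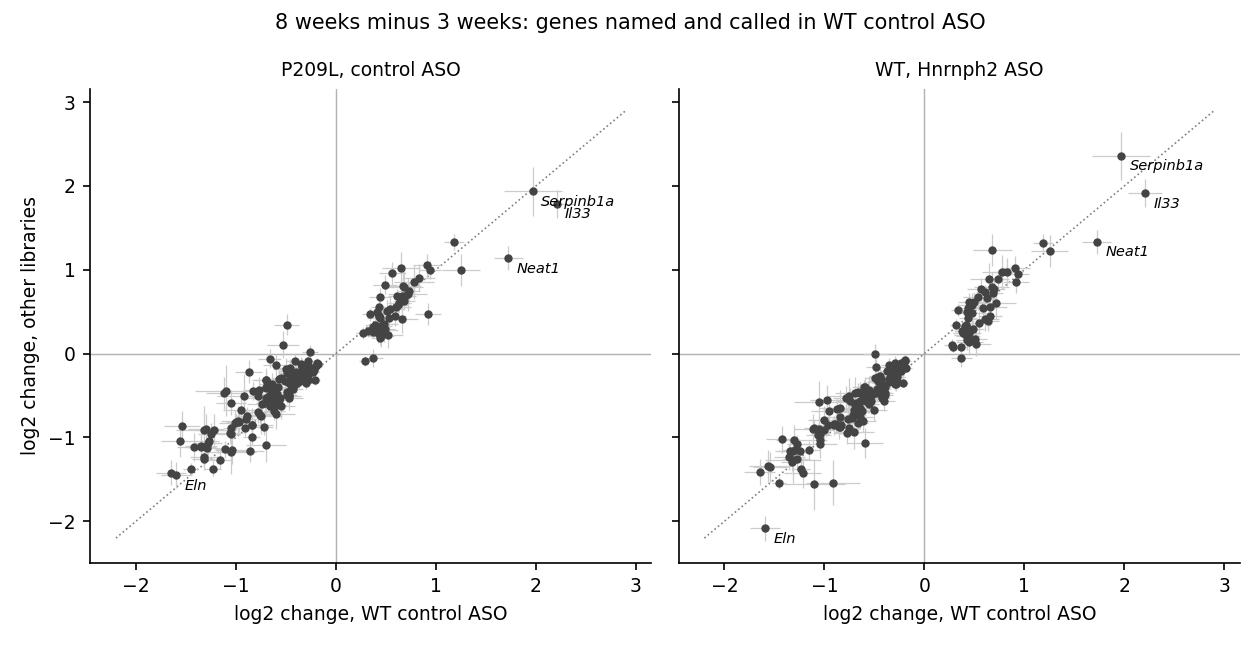
Log2 change from 3 to 8 weeks of the named genes called in WT brains with the control ASO (horizontal axis) against the log2 change of the same genes in P209L brains with the control ASO (left panel) and WT brains with the Hnrnph2 ASO (right panel). Grey bars are standard errors and the dotted line marks equal change. On the left 191 of 196 points and on the right 195 of 196 share the sign of their change. The genes were picked by their WT control values, and Il33, Serpinb1a, Neat1 and Eln are labelled.

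The difference between these age effects was tested directly. The interaction of age with the P209L genotype gave 0 genes at adjusted p under 0.05 in limma, and 451 genes (2.74%) had an unadjusted p under 0.05; the smallest adjusted p was 0.954. The interaction of age with the Hnrnph2 ASO gave 0 genes, with 372 (2.26%) at an unadjusted p under 0.05 and a smallest adjusted p of 0.953. With only the 4 groups of each interaction in the fit 1 and 2 genes were called lower. For Hmgcs1 the interaction with genotype was 0.33 ± 0.22 SE on the log2 scale (adjusted p = 0.999), so the smaller cholesterol synthesis count in P209L brains was not shown to be a different age effect.

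The WT control ASO group at 3 weeks from the R206W number series has the same genotype, oligonucleotide and age labels as the 3-week group used above, and so measures how far 2 such groups lie apart. In a fit of all 35 libraries 620 genes were higher and 296 lower in it than in the P209L series group (3.77% and 1.8% of 16438 tested, 5.57% in all). Leaving out 1 of the 6 libraries moved these counts between 2 and 897 and between 0 and 595, and with only the 6 libraries in the fit they were 3 and 3. The cerebellar granule cell list had a median of 0.42 with 6 genes higher, and the Purkinje cell list a median of 0.32 with 9 higher. The newly formed oligodendrocyte list had a median of -0.07 and the collagen list of 0.23. Of the genes called with age, 37 of the 386 and 60 of the 1118 also differed between the 3-week groups, a difference called in 5.45% of the 16472 genes (3.66% higher, 1.78% lower). Both contrasts use the same 3-week libraries of the P209L series, so this overlap is partly built in and was not tested. Set against the R206W series group, which shares the 8-week libraries with the main comparison, 876 genes were higher (5.32%) and 2395 lower (14.5%) at 8 weeks (19.9% in all, against 9.13% with the P209L series group). In that contrast 17 of the 24 granule cell genes and 13 of the 24 Purkinje cell genes were lower at 8 weeks, where 0 and 1 were with the P209L series group. Il33 was at 7.76, 6.53 and 6.31 TPM in the R206W series group (log2 change 2.47), Gpr17 at 81.9, 77.8 and 81.9 TPM (-1.72), and Marcksl1 at 308, 297 and 326 TPM (-1.55). Col4a1 was at 37.1, 33.5 and 33.2 TPM (-1.21).

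Of the 386 that rose 355 could be matched to RefSeq genes, and of the 1118 that fell 1107 could. The median gene span was 12.9 kb for rises and 24.3 kb for falls, against 21.5 kb over the 15560 matched genes tested. Long noncoding RNA genes made up 10.1% of the matched rises, 1.36% of the falls and 4.61% of all. The median level was 12.5 TPM for rises and 30.4 TPM for falls. These shares describe the called genes and were not tested.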

How the data were processed

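Total RNA was sequenced from mouse brain with a stranded total RNA kit, per the labels' protocols. The authors deposited 1 table of TPM for 55573 gene rows in 35 libraries. The submitters' processing notes name RSEM, Trim Galore, GATK 4.0.4.0 and STAR 2.7.1a and the mm10 build, with no role or order; filters are not given in the sources used here. RSEM-type tools share reads between near-identical genes, and TPM values of a library compete for a fixed total, so a few abundant RNAs can shift all others.

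From the deposited TPM, log2(TPM + 1) was fitted in R 4.3.3 by limma 3.58.1, with moderated variances that follow the mean level, two-sided p-values and Benjamini-Hochberg adjustment over all genes tested. Genes whose 6 values averaged under 1 TPM were left out. The fit held the 23 libraries of the P209L number series with 1 mean for each of 8 groups. Fold changes are on the log2(TPM + 1) scale, which understates those of low genes. The labels state no test. On simulated data of 16260 genes, 53% of genes changed by 0.5 and 95% of those changed by 1 (log2) were recovered. False calls numbered 7. These figures hold for the simulated data only. They give no rate of recovery or false calls for the real libraries, whose regional make-up differed within an age. In the real data, the 2 WT control ASO groups at 3 weeks differed in 916 genes (fit of all 35 libraries).

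The members and lists were chosen with earlier results of these data known. Named genes were the 15 largest rises and falls that held in each leave-one-out fit with a mean of at least 5 TPM in the higher group and no overlap, up to 6 called members per list with the smallest p (or up to 2 where fewer were called), and a set of genes known from brain development. Coordinates and gene types came from the RefSeq table of GRCm38.p6 by symbol. Alternatives were another set of libraries in the fit, pseudocount, filter, scaling, trend, replicate block and each library left out. Replicate numbers were not treated as pairs. Some genes that the rule names are not reported here.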

Additional observations from a re-analysis of the deposited data

How the results depend on the processing

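The number of calls depended on the processing. The direction of the named calls did not, but several of the alternatives could not change it. For the age effect in WT brains with the control ASO (386 higher, 1118 lower), the counts were 45 and 225 with only the 6 compared libraries in the fit and 641 and 689 with median ratio scaling. Leaving out 1 library gave 159 to 627 higher and 559 to 2000 lower. Pseudocount, filter, trend and the fit of all 35 libraries kept both counts within 1.5 times. Same-numbered libraries of the 2 ages had residual correlations of -0.03, 0.28 and 0.10, and the library that each one correlated best with was not always its own number, so the numbers were not taken to pair the samples. With the replicate block, in a fit of the 6 compared libraries, 54 genes were higher and 253 lower. The interaction of age with genotype (0 calls) gave 1 gene lower with only its 4 groups in the fit and 1 with the replicate block there, an alternative added after seeing the data, and 0 to 1 higher and 0 to 1 lower with 1 library left out. The interaction with the ASO (0 calls) gave 2 genes lower with only its 4 groups, 1 with the replicate block there, and 0 to 1 higher and 0 to 1 lower with 1 library left out. The 3-week group difference (620 higher, 296 lower) was 3 and 3 with only its 6 libraries in the fit, 653 lower with median ratio scaling, and 2 to 897 and 0 to 595 with 1 library left out. Over the named genes and their alternatives no called change turned its sign. Other libraries in the fit, the filter, the trend and the replicate block leave the log2 change as it is. Only pseudocount, scaling and left-out libraries could turn a sign. The largest rises and falls were also named only where their calls held in each leave-one-out fit. Depth is unknown from TPM, so the counting error of low values cannot be given.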
